A study of Mus musculus with 4 samples.

Results

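Foxr2 binding sites at the starts of long noncoding RNA (lncRNA) genes were 340 of 11943 reproducible sites (2.85%) on the assembled mouse chromosomes. CUT&RUN, in which an antibody directs a nuclease to a protein on chromatin and the released DNA is sequenced, was performed with a V5-tag antibody on a C57BL/6J neurosphere line from the Foxr2 p53LOF in utero electroporation (IUE) brain tumor model (genotype FOXR2 P53LoF, 2 replicates). That line expresses V5-tagged FOXR2 from a CAG-promoter piggyBac vector and carries CRISPR-targeted Trp53. The control cells came from a separate IUE model without the V5 tag (genotype G34R, also C57BL/6J, 2 replicates), so that the control differed in genotype as well as in the tag. The study's methods do not make clear whether these were a single line or several. The labels do not say whether replicates were separate cultures, each line may be a single clone, and the spread between replicates may be technical. A site was the stretch shared by a peak of each Foxr2 p53LOF replicate, and the members were chosen by 3 kinds of value. Each peak had to exceed a fold of 6 over the background of its library, be shorter than 10 kb and share fewer than 10 bp with any control peak. The site then had to lie within 1 kb of a transcript start of a GENCODE M21 gene typed lincRNA, antisense, processed_transcript or bidirectional_promoter_lncRNA, and over 1 kb from every protein-coding transcript start. The folds of the sites are therefore given as a description of the members selected on them, without a test.

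Long noncoding RNAs are transcripts of RNA polymerase II that are capped, often spliced and not translated into a known protein. Some act as RNAs in the nucleus, such as Malat1 at splicing speckles or Kcnq1ot1 in imprinting, whereas others are hosts whose introns or exons release small nucleolar RNAs (snoRNAs) or microRNAs (miRNAs). Foxr2 is a forkhead factor that is silent in most normal tissues and is switched on in a class of central nervous system neuroblastoma. Its binding at a lncRNA start says nothing of the level of that RNA, which was not measured in these libraries.

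The DNA at 8 of these starts is shown as the sequence of the annotated start, which is not that of the Foxr2 summit. The windows of 240 bp are centered on the nearest annotated lncRNA start, read on the strand of that gene from GRCm38.p6, and capitals mark matches on either strand to ETS (CCGGAAG), YY1 (ATGGCGG), NRF1 (GCGCATG), SP/KLF (GGGCGGG), CRE (TGACGTCA) or BANP (CTCGCGA). They are 1700113A16Rik at chr3:88177665-88177904 (minus strand), Snhg15 at chr11:6528626-6528865 (minus strand), 6720427I07Rik at chr13:48546380-48546619 (minus strand), Snhg6 at chr1:9943983-9944222 (minus strand), Snhg20 at chr11:117076682-117076921 (plus strand), Nespas at chr2:174295316-174295555 (minus strand), Pvt1 at chr15:62037941-62038180 (plus strand) and Malat1 at chr19:5802552-5802791 (minus strand). The first is the member with the highest fold, Snhg15, Snhg6 and Snhg20 are snoRNA hosts, 6720427I07Rik holds let-7 genes, Nespas is imprinted, Pvt1 neighbors Myc, and Malat1 is shown as a start with none of the 6 motifs in its window. The replicate 2 summit lay inside the window shown at Snhg15 and 6720427I07Rik alone. Within 150 bp of that summit, Snhg6 held no ETS letters, Snhg15 no CRE or SP/KLF letters and Pvt1 no CRE letters. At Malat1 the replicate 2 summit lay at -493 bp from the start, and YY1 letters were within 150 bp of it.
1700113A16Rik: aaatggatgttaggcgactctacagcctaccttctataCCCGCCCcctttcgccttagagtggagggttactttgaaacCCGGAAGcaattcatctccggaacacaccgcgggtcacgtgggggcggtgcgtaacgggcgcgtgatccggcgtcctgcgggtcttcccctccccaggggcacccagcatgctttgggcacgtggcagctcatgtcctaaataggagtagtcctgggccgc
Snhg15: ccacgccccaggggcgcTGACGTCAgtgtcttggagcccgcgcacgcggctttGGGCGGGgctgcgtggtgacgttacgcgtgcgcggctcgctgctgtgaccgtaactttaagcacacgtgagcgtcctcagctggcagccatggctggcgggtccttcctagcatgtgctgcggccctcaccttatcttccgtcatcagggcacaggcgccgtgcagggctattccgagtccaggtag
6720427I07Rik: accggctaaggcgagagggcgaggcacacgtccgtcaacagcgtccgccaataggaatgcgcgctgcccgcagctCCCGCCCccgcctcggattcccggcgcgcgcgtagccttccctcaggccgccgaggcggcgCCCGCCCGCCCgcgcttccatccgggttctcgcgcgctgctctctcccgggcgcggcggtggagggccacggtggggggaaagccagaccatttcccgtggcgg
Snhg6: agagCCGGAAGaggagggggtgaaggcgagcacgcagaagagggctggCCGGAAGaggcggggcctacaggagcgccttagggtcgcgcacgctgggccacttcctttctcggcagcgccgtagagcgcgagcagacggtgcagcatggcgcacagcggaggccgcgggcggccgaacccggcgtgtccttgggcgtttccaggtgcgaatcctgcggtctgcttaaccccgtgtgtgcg
Snhg20: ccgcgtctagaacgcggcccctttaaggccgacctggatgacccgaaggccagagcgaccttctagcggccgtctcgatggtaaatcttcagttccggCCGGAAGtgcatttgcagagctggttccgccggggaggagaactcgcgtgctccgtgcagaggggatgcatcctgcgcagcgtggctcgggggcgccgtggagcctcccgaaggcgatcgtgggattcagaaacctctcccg
Nespas: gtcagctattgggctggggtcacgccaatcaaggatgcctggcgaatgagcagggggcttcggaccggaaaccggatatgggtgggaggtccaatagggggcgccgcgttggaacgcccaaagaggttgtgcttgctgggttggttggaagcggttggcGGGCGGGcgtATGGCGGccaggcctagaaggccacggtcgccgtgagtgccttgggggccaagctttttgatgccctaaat
Pvt1: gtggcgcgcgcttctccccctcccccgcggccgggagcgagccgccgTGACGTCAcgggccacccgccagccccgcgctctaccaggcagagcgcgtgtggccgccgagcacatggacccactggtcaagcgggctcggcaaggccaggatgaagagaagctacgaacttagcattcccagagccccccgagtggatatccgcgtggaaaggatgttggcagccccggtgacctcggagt
Malat1: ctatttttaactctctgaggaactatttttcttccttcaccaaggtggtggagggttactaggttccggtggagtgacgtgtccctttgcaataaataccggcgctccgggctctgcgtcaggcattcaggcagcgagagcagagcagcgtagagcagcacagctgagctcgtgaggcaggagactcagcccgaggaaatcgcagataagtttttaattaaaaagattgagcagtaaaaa
Matches of this kind are descriptions of letters, not of occupancy, and the capitals of overlapping matches run together, as in the SP/KLF stretch of 6720427I07Rik.

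Mature miRNAs encoded within lncRNA genes with a member site are shown because such hosts stood among the highest folds. Each is written 5′ to 3′ from RefSeq (GRCm38.p6), with bases 2 to 8, the seed that pairs with target RNAs, in capitals. The let-7 members share GAGGUAG, miR-17 and miR-20a share AAAGUGC, miR-15a and miR-16 share AGCAGCA, and miR-132 and miR-212 share AACAGUC.
mmu-let-7a-5p: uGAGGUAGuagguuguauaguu
mmu-let-7b-5p: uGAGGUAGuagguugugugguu
mmu-let-7c-5p: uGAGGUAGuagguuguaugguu
mmu-let-7d-5p: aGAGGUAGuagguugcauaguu
mmu-let-7f-5p: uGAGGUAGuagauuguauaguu
mmu-miR-17-5p: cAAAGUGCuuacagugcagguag
mmu-miR-20a-5p: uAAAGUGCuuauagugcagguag
mmu-miR-15a-5p: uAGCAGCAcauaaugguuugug
mmu-miR-16-5p: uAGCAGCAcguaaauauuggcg
mmu-miR-22-3p: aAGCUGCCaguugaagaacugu
mmu-miR-132-3p: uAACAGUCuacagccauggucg
mmu-miR-212-3p: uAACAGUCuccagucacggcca
mmu-miR-125b-5p: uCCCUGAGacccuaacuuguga
The let-7 sequences shown lie within 6720427I07Rik, Lncppara and Mir99ahg, the miR-17 and miR-20a sequences within Mir17hg, the miR-15a and miR-16 sequences within Dleu2, miR-22 within Mir22hg, miR-132 and miR-212 within 1700016P03Rik, and miR-125b within Mir99ahg and 3110039I08Rik.

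The 2 Foxr2 p53LOF libraries held 31909 and 38580 peaks before filtering, of which 13418 and 14864 passed, and the control libraries held 308 and 124. Folds moved in steps of 0.442 in replicate 1 and 0.329 in replicate 2, the worth of 1 fragment at the summit over a constant background of each library, so a fold above 6 needed 13 and 18 fragments. Replicate 2 had the higher inferred background (2.04 fragments against 1.26), and its folds were the higher at 255 of the 340 sites and at 75.1% of all sites. Because the background was 1 value per library, copy number of the line would scale these folds, and it was not measured here.

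The members spanned 353 lncRNA genes, of which 210 were typed lincRNA, 78 antisense and 65 processed_transcript, with no bidirectional_promoter_lncRNA. Median folds were 9.72 in replicate 1 and 10.8 in replicate 2, and the lower fold of the 2 had a median of 9.20 with a range from 6.19 to 45.5. Spearman's rho between the replicates was 0.765 over the 340 sites, a description over sites that share their libraries and a common minimum fold. Sites at protein-coding starts had medians of 10.2 and 11.8 (n = 7807) and sites at neither kind of start 8.39 and 9.86 (n = 3796), so the members lay between these groups. The lower fold exceeded 10 at 42.6% of members, 47.0% of sites at protein-coding starts and 24.2% of sites at neither. Of the 340 members, 29 (8.53%) fell in the highest 10% of all sites by lower fold, near the share over all sites. No test was made of these differences, since sites of the same 2 libraries are not replicates.

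**Figure D1:**
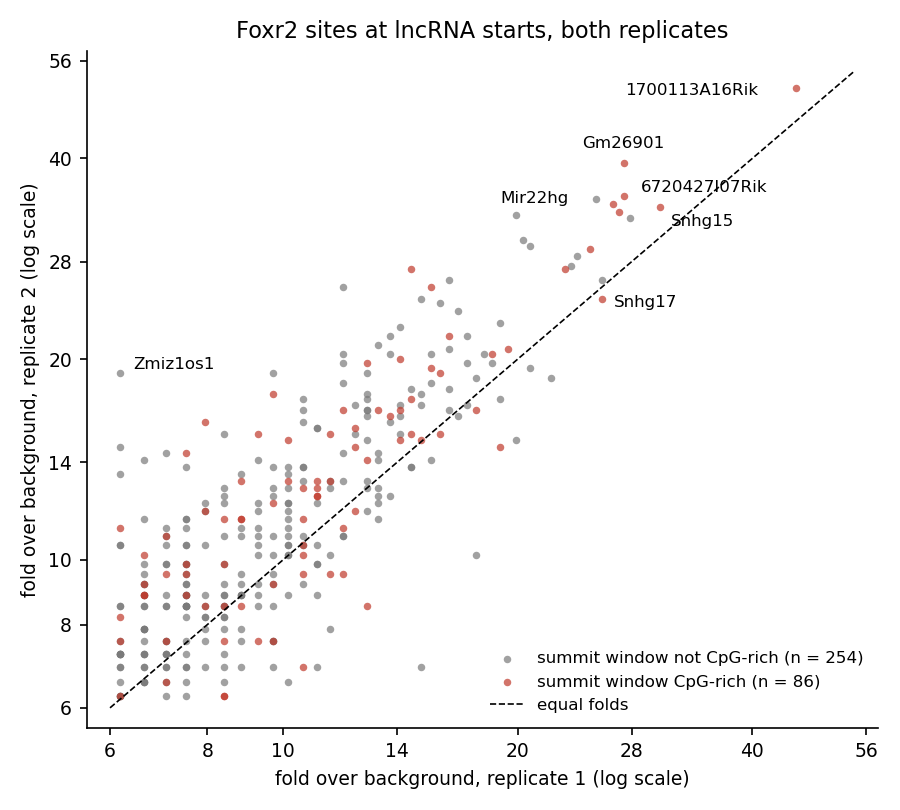
Fold over background of each of the 340 sites in replicate 1 (x axis) and replicate 2 (y axis), both on log scales; each point is a site, red where the 300 bp around its replicate 2 summit are CpG-rich, and the dashed line marks equal folds. Most points lie above the line, 1700113A16Rik stands farthest out at 45.5 and 50.9, and the grid at the lower left is the step of single fragments.

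The highest member was at 1700113A16Rik, an antisense-type gene of unassigned function on chromosome 3 (chr3:88177007-88178975), with a fold of 45.5 (exact Poisson 95% interval 37.2 to 55.2, for counting error only) in replicate 1 and 50.9 (43.3 to 59.6) in replicate 2. These folds stood for 102 and 154 fragments at the summit, and the summits of the replicates lay at -138 and -141 bp from the annotated start, that is upstream. The next member by lower fold, Snhg15, had 30.5 (23.8 to 38.5) and 33.8 (27.7 to 41.0). The intervals of these sites overlapped in replicate 1 and not in replicate 2. Gm26901 had folds of 27.4 and 39.4, and 1500004A13Rik 27.8 and 32.5. The let-7 host 6720427I07Rik had 27.4 and 35.2, Gm6410 27.0 and 33.2, and Mir17hg, the host of the miR-17-92 cluster, 26.5 and 34.2. Zfhx2os, which shares its site with Gm20687, had 25.6 and 26.3, and Mir22hg had 25.2 and 34.8. The remaining members of the highest 12 were Gm26660 (24.7 and 29.2), Snhg17 (25.6 and 24.6) and 8030453O22Rik (23.9 and 28.6). Replicate 2 was the higher at all of these 12 sites except Snhg17, and Snhg15, 6720427I07Rik, Mir17hg, Mir22hg and Snhg17 are hosts of small RNAs.

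At the other end, 23 members were tied at a lower fold of 6.19, the first step above the minimum, and their other fold ranged from 6.24 to 19.1. The nearest candidates outside had a lower fold of 5.91. Among them, Gm11770 and Gm41043, each with 6.63 and 5.91, and 1700061E18Rik, with 7.51 and 5.91, missed the minimum by 1 fragment in replicate 2. Without any minimum fold there were 663 candidate sites at lncRNA starts, of which 323 had a lower fold at or below 6. The replicates differed most at Zmiz1os1, with 6.19 (3.50 to 10.3) in replicate 1 and 19.1 (14.5 to 24.6) in replicate 2, where a peak of 1083 bp lay within a peak of 6776 bp. The counting intervals of the replicates did not overlap there. The widest difference the other way was at 4930578M01Rik, with 15.0 and 6.90, but it turned on the length limit. The same replicate 1 peak also overlapped a replicate 2 peak of 12036 bp with a fold of 37.1, which the limit removed.

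Members were compared with all lncRNA starts that could have held one. Of 8251 lncRNA genes with a start over 1 kb from protein-coding starts, 349 (4.23%) had a member site, and 483 (5.85%) had any reproducible site within 1 kb, the excess being sites that also reached a protein-coding start. Of 21853 protein-coding genes, 8599 (39.3%) had a reproducible site at a start. Before the fold, length and control filters, peaks of both replicates lay at 9.97% of the eligible lncRNA genes and at 51.5% of protein-coding genes. No peak of either replicate lay at 7034 lncRNA genes (85.2%). Control peaks lay at 8 eligible genes in the first control replicate and 5 in the second. Among the lncRNA types, a member site was found at 11.3% of 568 processed_transcript genes, 3.78% of 5529 lincRNA genes, 3.56% of 2137 antisense genes and 0 of 17 bidirectional_promoter_lncRNA genes. The processed_transcript type, which holds most of the listed snoRNA hosts, also had the highest folds, with medians of 11.0 and 13.5 over 67 sites against 8.84 and 10.3 over 76 antisense sites. The share rose with the number of annotated starts. A member site was present at 2.98% of 6273 genes with 1 start, 6.79% of 1798 with 2 to 4 starts and 22.2% of 180 with 5 or more.

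LncRNA genes with a member site more often had a CpG-rich start than genes with no site. The start read here was the 5′-most eligible start of each gene, which itself lay within 1 kb of a member site in 329 of the 349 genes (94.3%). A start was called CpG-rich where the 300 bp around it held over 50% G and C and a CpG count over 0.6 of that expected from base composition, as at CpG islands, the unmethylated promoters of widely expressed genes. Of the lncRNA genes with a member site, 116 of 349 (33.2%) had a CpG-rich start, against 313 of 7768 (4.03%) with no site. Among genes with 1 annotated start these were 50 of 187 (26.7%) and 215 of 5987 (3.59%). In the other direction, 116 of 459 lncRNA genes with a CpG-rich start (25.3%) had a member site and 233 of 7792 other genes (2.99%). Within CpG-rich starts the share was lower for lncRNA than for protein-coding genes. With any reproducible site counted, the share was 31.8% of CpG-rich lncRNA starts and 66.0% of CpG-rich protein-coding starts. Among CpG-rich starts of genes with 1 annotated start, these shares were 24.6% (n = 285) and 58.5% (n = 3473). Genes with 5 or more starts came closer, at 68.8% (n = 32) and 77.2% (n = 1536). Most members were nonetheless not CpG-rich at the summit: 86 of 340 (25.3%) were, against 64.8% of sites at protein-coding starts and 7.74% of sites at neither. The CpG-rich members had median folds of 10.8 and 12.8, and the other 254 had 9.28 and 10.5. Accessibility and transcription of these starts were not measured in these files, and their part in the difference was not tested.

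**Figure D2:**
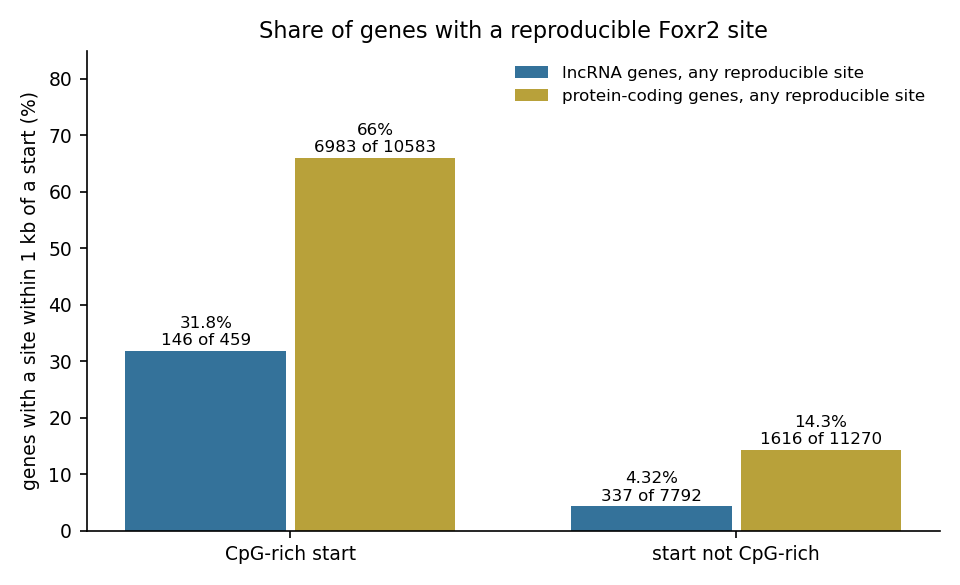
Percentage of genes with any reproducible Foxr2 site within 1 kb of a start, for lncRNA genes with a start over 1 kb from protein-coding starts (blue) and protein-coding genes (yellow), split by the CpG content of the 300 bp around the 5′-most start. CpG-rich starts had the higher share in each class, 31.8% and 66.0%, and lncRNA genes had the lower share at either CpG content.

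Foxr2 summits near the lncRNA start were unevenly placed on its flanks. The start itself was inside 278 of 340 sites (81.8%), and the median distance from the nearest lncRNA start to the summit was 357 bp in replicate 1 and 338.5 bp in replicate 2. In replicate 2, 28 summits lay within the 100 bp downstream of the start, 50 at 100 to 200 bp downstream, 12 within the 100 bp upstream, 15 at 100 to 200 bp upstream and 71 at 200 to 500 bp upstream, the last being 23.7 per 100 bp. Replicate 1 gave 33, 40, 12, 15 and 81 (27.0 per 100 bp). At 200 to 500 bp downstream there were 39 in replicate 2 and 35 in replicate 1 (11.7 per 100 bp in the latter), about as few per 100 bp as in the 200 bp upstream. Sites at protein-coding starts had 5.14% of replicate 2 summits in the 100 bp upstream, with 1248 of 7807 in the 100 bp downstream, 21.2% at 100 to 200 bp downstream and 9.41% at 100 to 200 bp upstream, and 11.2% at 200 to 500 bp downstream (3.74% per 100 bp). The members were more spread, with 58 of 340 summits over 1000 bp away (11.2% downstream and 5.88% upstream) against 3.18% and 1.86% at protein-coding starts. The annotated start is the reference here, and lncRNA 5′ ends are less completely annotated than those of protein-coding genes.

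**Figure D3:**
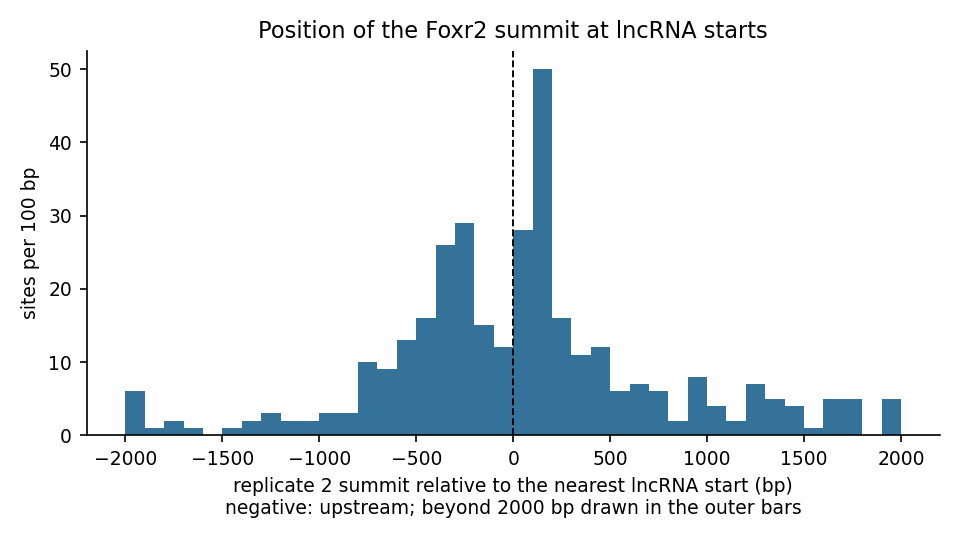
Number of sites per 100 bp by the position of the replicate 2 summit relative to the nearest annotated lncRNA start (x axis in bp, negative values upstream, dashed line at the start); the 9 sites beyond 2000 bp are drawn in the outer bars. The counts are highest at 100 to 200 bp downstream (50 sites), with 28 in the 100 bp after the start, 12 in the 100 bp before it and a broader rise farther upstream.

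Most members lay well beyond the 1 kb from protein-coding starts that the rule itself required. Distances and gene contexts were not taken over all eligible lncRNA starts, so those given here describe the members alone. The nearest such start lay at a median of about 29 kb, at 1099 bp for the nearest, within 5 kb for 47 members, from 5 to 50 kb for 178 and at 50 kb or more for 115. The lncRNA start lay outside protein-coding genes at 262 members (77.1%), within a protein-coding gene of the other strand at 71 (20.9%) and within one of the same strand at 7. Folds were lower within genes of the other strand, with medians of 7.95 and 9.86 against 10.2 and 11.5 outside. The lncRNA label was checked against RefSeq. Of the nearest genes, 209 were lncRNA in RefSeq, 116 had no match, 4 were transcribed pseudogenes, 1 was antisense RNA and 10 were protein-coding (Zswim6, Trerf1 and Tctn2 among them). A curated RefSeq coding transcript started within 1 kb of 13 members (3.82%), and any RefSeq coding transcript, predicted models included, at 35 (10.3%).

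A minority of the member genes were hosts of small RNAs, at a higher share than genes with no site. A lncRNA gene was called a host where a small RNA gene lay inside it on the same strand. Among the 349 eligible genes with a member site, 24 (6.88%) held a miRNA and 17 (4.87%) a snoRNA, against 1.03% and 0.53% of genes with no site. Small RNA types are those of GENCODE, and in 2 of the 17 snoRNA hosts (2900076A07Rik and AI506816) the only gene typed snoRNA has a miRNA name. Of the 24 miRNA hosts, 19 were matched to RefSeq miRNAs. In 9330111N05Rik, A930003A15Rik, Gm11613 and Zswim6 the only gene typed miRNA has no miRNA name. Of 104 eligible lncRNA genes that held a miRNA, 24 (23.1%) had a member site, and of 61 that held a snoRNA, which guides chemical modification of ribosomal and spliceosomal RNA, 17 (27.9%) did, against 4.23% of all eligible genes. Hosts had more annotated starts, with a mean of 3.74 for miRNA hosts and 3.23 for snoRNA hosts against 1.39 for lncRNA genes with no site. With a CpG-rich start, 13 of 22 miRNA hosts (59.1%) and 15 of 17 snoRNA hosts (88.2%) had a member site, against 25.3% of all eligible genes of that class. With a start that was not CpG-rich, 11 of 82 miRNA hosts (13.4%) and 2 of 44 snoRNA hosts (4.55%) did, against 2.99% of all eligible genes of that class, so the snoRNA hosts without a CpG-rich start lay near the background. The part of start number and CpG content in the share of hosts was not tested further. A small RNA lay downstream of a start with a member site in 23 of the 24 miRNA hosts and in each of the 17 snoRNA hosts, the exception being Gm3764.

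The miRNA hosts with a member site had median folds of 11.3 and 15.8, from 6.19 to 27.4 in replicate 1 and from 6.24 to 35.2 in replicate 2. The 4 let-7 hosts held 7 of the 11 let-7 hairpin genes in RefSeq, and 6 of the 7 lay downstream of a start with a member site. Of all 1005 miRNA hairpin genes in RefSeq, 35 (3.48%) lay in lncRNA genes with a member site, and let-7 was singled out after its values were seen. 6720427I07Rik, at 27.4 and 35.2, holds let-7a-1, let-7d and let-7f-1, whose mature RNAs share the GAGGUAG seed shown above. Mir99ahg, which holds let-7c-1, miR-99a and miR-125b-2, had 3 member sites, at 20.8 and 19.4, at 11.9 and 14.5, and at 9.72 and 12.5. Lncppara, with let-7b and let-7c-2, had 16.3 and 18.1. 3110039I08Rik, with let-7a-2, miR-100 and miR-125b-1, had 6.19 and 14.8, the lowest step above the minimum in replicate 1, at a start with miR-125b-1 downstream but let-7a-2 and miR-100 upstream of it. Hosts of other well known miRNAs follow as examples. Dleu2, the host of the miR-15a and miR-16-1 pair that restrains cyclins, had 17.2 and 21.7 at its highest site and 12.8 and 8.54 at another. Mir670hg had 23.4 and 27.6. 1700016P03Rik, which holds the neuronal miR-132 and miR-212, had 9.72 and 17.7. Its replicate 2 summit lay at -2082 bp from the nearest annotated lncRNA start, so the 17.7 is not a value at that start. Gm3764, within which miR-9-1 of neural progenitors lies, had 6.63 and 8.54 at a start downstream of that miRNA. A330023F24Rik, with miR-29b-2 and miR-29c, had 8.39 and 6.24. The miRNA hosts thus ranged from 6720427I07Rik and Mir17hg, both among the 12 highest members, to the lowest step above the minimum.

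The snoRNA hosts with a member site had median folds of 13.3 and 15.4. Snhg15 had 30.5 and 33.8, Snhg17 25.6 and 24.6, and 1810032O08Rik, which holds 3 Snord1 genes, 23.0 and 27.3. Snhg8 had 14.6 and 27.3, Dancr 14.1 and 16.4, Snhg5 11.0 and 13.1, Snhg6 11.0 and 12.5, Snhg12 9.28 and 15.4, and Snhg20 9.72 and 9.20. Of 11 listed snoRNA hosts with an eligible start, 8 had a member site, against 4.23% of all eligible genes. Among all 16 annotated as lncRNA genes, 6 had a site that also reached a protein-coding start, including Gas5 (21.2 and 18.4) and Zfas1 (13.3 and 19.1). Snhg18 had a peak of 3.53 in replicate 1 alone, and Snhg14, the long host of the imprinted Snord115 and Snord116 clusters, had no peak. Every other listed snoRNA host annotated as a lncRNA thus had a reproducible site within 1 kb of a start.

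**Figure D4:**
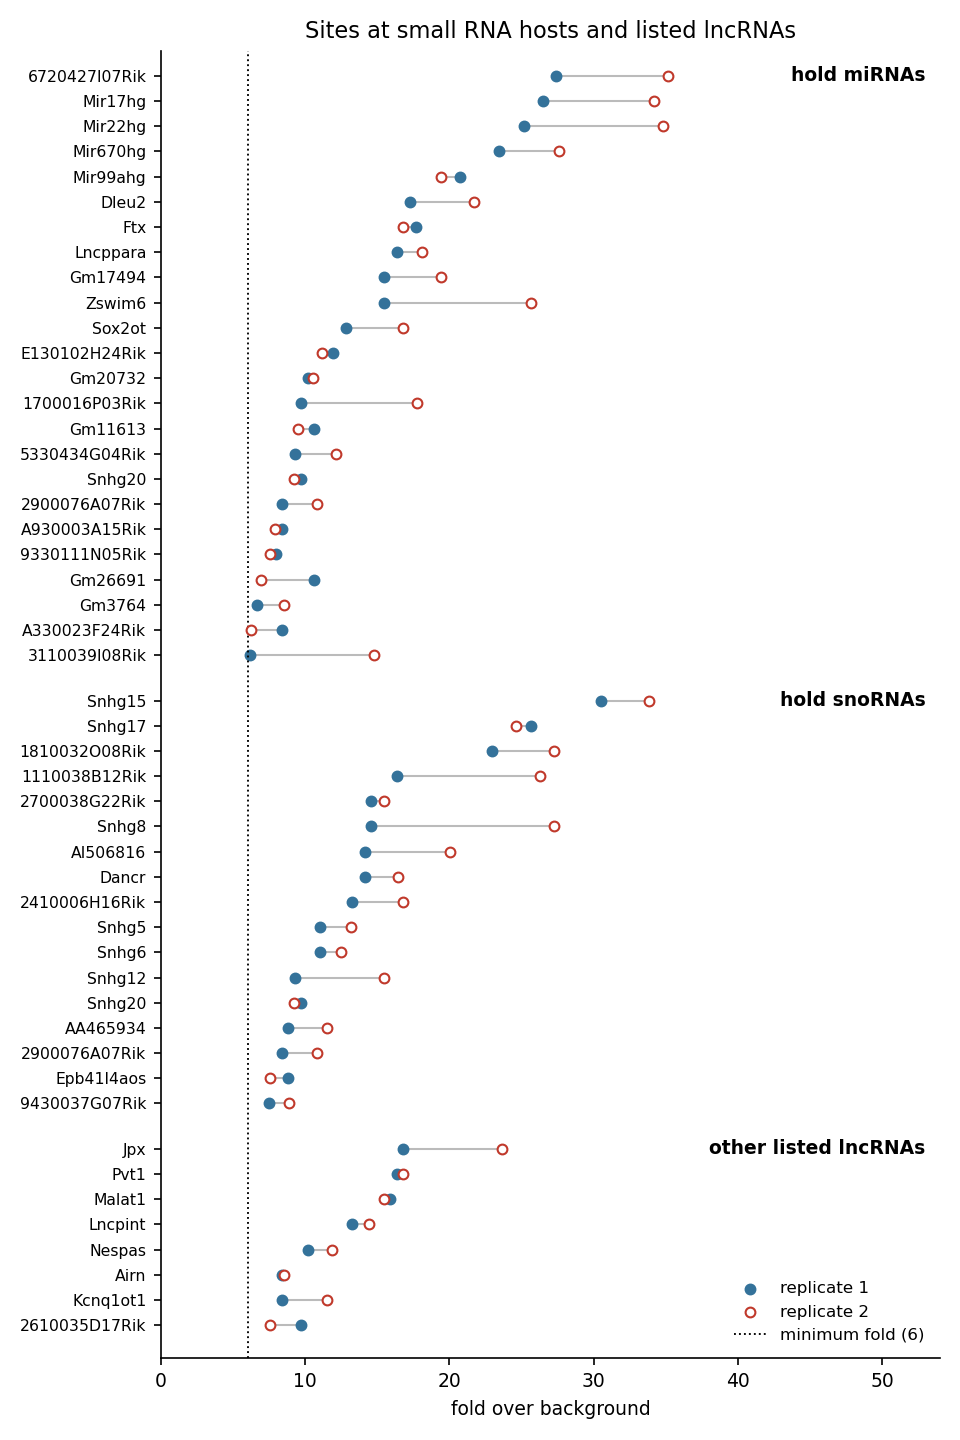
Fold over background in replicate 1 (filled blue) and replicate 2 (open red) at member sites of lncRNA genes that hold miRNAs, that hold snoRNAs, and of the other listed lncRNAs, ordered within each class by the lower fold; the dotted line marks the minimum of 6. A gene of both host classes appears in each, and a gene with several sites is shown at its highest; 6720427I07Rik (27.4 and 35.2) and Snhg15 (30.5 and 33.8) lead the host classes.

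Other well known lncRNAs were examined by lists. Of 10 nuclear or widely expressed lncRNAs with an eligible start, 5 had a member site, against 4.23% of all eligible genes. Malat1, an abundant RNA of splicing speckles, had 15.9 and 15.4, with summits at -348 and -493 bp from its start. Pvt1, which neighbors Myc on chromosome 15, had 16.3 and 16.8, and Lncpint, a p53-induced RNA, had 13.3 and 14.5 at its highest site and 9.72 and 9.53 at another. Epb41l4aos had 8.84 and 7.56, and Kcnq1ot1, which silences neighbors on the paternal chromosome, had 8.39 and 11.5. Tug1 (17.2 and 15.1) and Crnde (20.8 and 21.4) had sites that also reached a protein-coding start. Neat1, the scaffold of paraspeckles, had folds of 28.7 and 32.5 but peaks of 10547 and 11607 bp, longer than the limit, and so was no member. Firre had a peak of 4.60 in replicate 2 alone.

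At the X inactivation center, where Xist coats the inactive X chromosome, 2 of 4 lncRNAs, Jpx and Ftx, had member sites, against 4.23% of all eligible genes, and Xist and its antisense Tsix had no peak in either replicate. Jpx, an activator of Xist, had 16.8 (12.0 to 23.0) and 23.7 (18.5 to 29.8). Ftx had 17.7 and 16.8 at its highest site and 6.63 and 8.54 at another. Among 8 imprinted lncRNAs, Airn (8.39 and 8.54), Kcnq1ot1 and Nespas (10.2 and 11.8) had a member site (3 of 8, beside the same 4.23%), and H19, Meg3, Rian, Mirg and Snhg14 had no peak. Imprinted genes are transcribed from the allele of a single parent, and these peak calls do not separate alleles.

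Of 14 neural lncRNAs with an eligible start, 2 had a member site (14.3%, against 4.23% of all eligible genes). They were Sox2ot, whose transcripts span Sox2, and 2610035D17Rik, in the gene desert beside Sox9. Sox2ot had 12.8 and 16.8 at the longest of all member sites (8359 bp) and 11.0 and 12.5 at a second site at an upstream start, and 2610035D17Rik had 9.72 and 7.56. Lhx1os had a site that also reached a protein-coding start (7.51 and 10.5). Pantr1 (17.2 and 21.7), Nkx2-2os (9.72 and 11.8) and C130071C03Rik (16.8 and 16.1) had peaks in both replicates of which at least 1 exceeded 10 kb, though without that limit C130071C03Rik alone of these became a member, and Dlx6os1 had 4.86 and 5.26, under the minimum. Miat, Meg3, Rian, Dlx1as, Six3os1, 2610307P16Rik and Evx1os had no peak, and Rmst had 5.30 in replicate 1 alone. Of 8 Hox cluster lncRNAs 0 had a member site, a number too small to set apart from the 4.23% of all eligible genes. Hotairm1 had a site that also reached a protein-coding start (13.7 and 14.8), Hoxaas2, Hoxaas3, Hottip and Hoxa11os had peaks with folds from 3.53 to 7.23 that did not pass in both replicates, and Hotair, Hoxb5os and Haglr had none. Among 7 p53-linked lncRNAs with an eligible start, 2 (28.6%, against 4.23%), Lncpint and Pvt1, had member sites, and Trp53cor1, a direct p53 target, had 7.51 and 5.59. Over all lists, 24 of 62 lncRNA genes with an eligible start had a member site (38.7%, against 4.23% of all eligible genes). Of all 68 annotated lncRNA genes listed, 10 had a site that also reached a protein-coding start, 12 had peaks in both replicates without a site, 4 had a peak in a single replicate and 18 had none. The lists hold well studied genes and were not independent of earlier results from these data.

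Long sites were rare among the members. After Sox2ot the longest were Gm46404 (7249 bp, 12.8 and 15.1) and 9630013A20Rik (6576 bp, 9.72 and 19.1), against a median length of 1679.5 bp. Without the length limit 9 sites were added, at C230035I16Rik (30.5 and 53.6), Neat1 with Frmd8os, Lockd with Gm44238 (18.1 and 29.6), Gm4258, C130071C03Rik (3 sites), 4930578M01Rik and Sox2ot. Without the control filter a single site was added, at AY036118, Gm26917 and Gm42418 on chromosome 17, where the control peaks had folds of 69.8 and 47.5 beside 126 and 104 in the Foxr2 p53LOF replicates.

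Motif letters at the starts were compared within CpG class, because CpG-rich DNA holds GC-rich motifs more often. Motifs were searched on both strands in the 300 bp around the 5′-most eligible start of each gene, and a start is counted with a member site where its gene had one at any eligible start. The ETS letters (CCGGAAG) were present at 17 of 116 CpG-rich starts with a member site (14.7%) and 25 of 313 without a site (7.99%), and at 6.44% and 2.62% of starts that were not CpG-rich. The SP/KLF letters (GGGCGGG) were present at 42.2% and 28.1% of CpG-rich starts and at 12.0% and 3.45% of the others. CRE letters (TGACGTCA), read by CREB and ATF factors, were present at 6.90% and 1.92%, and at 2.15% and 0.51% of the others. NRF1 (GCGCATG) was at 10.3% and 5.75%, the E-box (CACGTG) at 16.4% and 10.9%, YY1 (ATGGCGG) at 6.90% and 4.79% and BANP (CTCGCGA) at 4.31% and 0.96% of CpG-rich starts. For YY1 the order turned at starts that were not CpG-rich, with 0.43% and 1.26%. The forkhead letters (GTAAACA) were not more frequent at starts with a site, at 1.72% and 3.19% of CpG-rich starts and 3.86% and 3.93% of the others. SOX letters (ACAATGG) were at 0.86% and 2.88% of CpG-rich starts and 6.87% and 5.75% of the others. The remaining letters were NFY (CCAAT), AP-1 (TGANTCA), read by Fos and Jun factors, and the box of core promoters (TATAAA). AP-1 was at 5.17% and 4.15% of CpG-rich starts and 11.6% and 10.3% of the others. The order turned between the classes for NFY, at 42 of 116 and 94 of 313 CpG-rich starts but 33.5% and 39.0% of the others, and for TATAAA, at 12.9% and 6.07% but 10.7% and 16.5%. CpG-rich protein-coding starts with a site held ETS letters at 23.3%, SP/KLF at 55.7% and CRE at 4.21%. Several of these shares rest on few starts (8 with CRE, 5 with BANP), and no test was made.

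**Figure D5:**
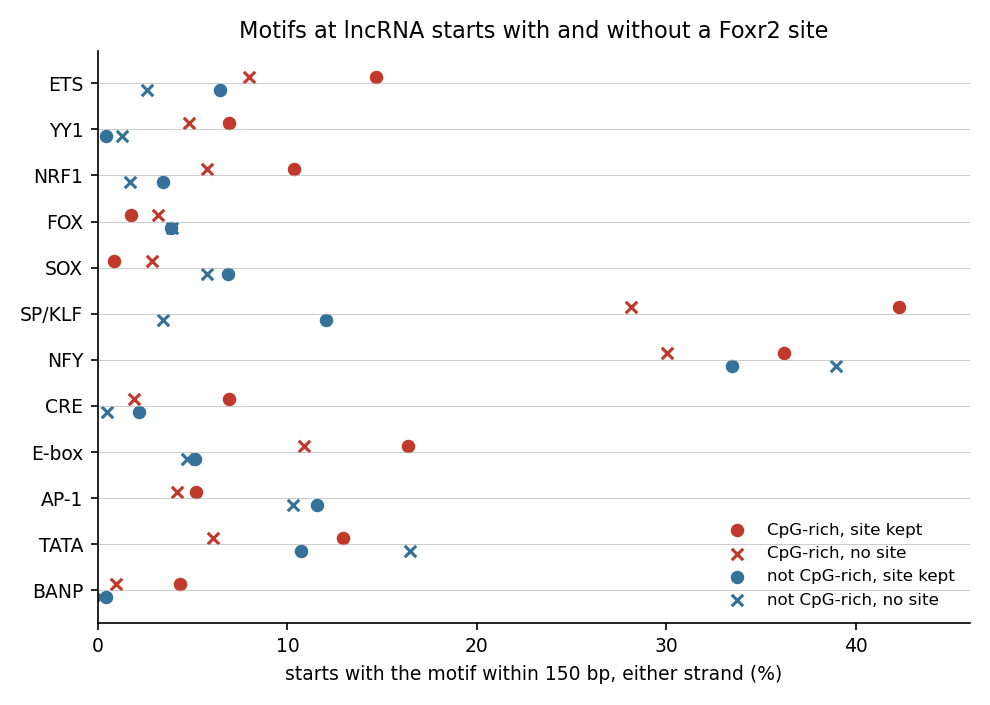
Percentage of lncRNA genes with each motif within 150 bp of the 5′-most eligible start on either strand, for CpG-rich starts (red) and other starts (blue), with a member site (circles) or with no reproducible site (crosses). ETS, SP/KLF, NRF1, CRE, E-box, AP-1 and BANP circles lie right of the crosses in both CpG classes, and the FOX circles do not.

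At the replicate 2 summits of the members themselves, ETS and SP/KLF letters were less frequent than at the starts of genes with a member site (9.17% and 22.1% over both CpG classes), while forkhead (3.15% at those starts) and YY1 letters were about as frequent. ETS letters were within 150 bp of 4.41% of member summits, 10.4% of summits at protein-coding starts and 2.40% of summits at neither. SP/KLF letters were at 12.9%, 30.4% and 7.06%, and AP-1 letters at 6.47%, 3.74% and 10.9%. For these 3 motifs the members lay between the other groups, which differ in CpG content (25.3%, 64.8% and 7.74% of summits CpG-rich). Among CpG-rich summits, SP/KLF was at 34.9% of members and 38.7% of sites at protein-coding starts. ETS was at 9.30% and 13.2% there, and AP-1 at 3.49% and 2.93%. Among the other summits, SP/KLF was at 5.51% of members and 4.74% of sites at neither. ETS was at 2.76% and 1.88% there, and AP-1 at 7.48% and 11.4%. The part of CpG content in the order was not tested. NFY letters were at 31.8% of members, 26.7% of summits at protein-coding starts and 30.8% at neither. CRE letters were at 1.47% (5 members), 1.23% and 0.32%. The E-box was at 6.76%, 9.66% and 6.85%, so members were near the sites at neither. No rank is drawn from these small gaps, since at replicate 1 summits members held NFY at 28.5% and the E-box at 10.3%. Among CpG-rich summits the E-box was at 12.8% of members and 10.3% of sites at protein-coding starts. With 200 bp in place of 300 bp the shares of members were 2.06% for ETS and 8.53% for SP/KLF, and at replicate 1 summits 5.00% and 14.1%. The forkhead letters were at 3.24% of member summits, 2.45% and 4.50%, and 129 of the 340 members held none of the 12 motifs in the window.

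Member sites were present on each chromosome except Y, with 32 on chromosome 1 as the most. As a share of eligible lncRNA genes, chromosome 11 had the highest (6.97%) and chromosome 12 the lowest of the autosomes (1.90%), and none of 551 eligible genes on Y had a site. Chromosome 11 also had the highest share of protein-coding genes with a site (52.9%). On X, 4.73% of eligible lncRNA genes had a member site although 10.3% of protein-coding genes had a site, the lowest share outside Y.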

How the data were processed

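CUT&RUN peaks of 2 Foxr2 p53LOF and 2 untagged control libraries were used. Per the study's methods and processing notes, the authors trimmed reads (Trimmomatic 0.39), aligned them to mm10 (BWA 0.7.17), removed duplicates (Picard 2.26.6) and called peaks in each library alone with MACS2 2.2.7.1, HOMER 4.11 serving for tracks; no input library was named. The deposited columns are the fold over background (a ratio), the −log10 p-value and q-value, and a score derived from the q-value, all before filtering. The peak filters of the study's methods (fold and −log10 q-value above 6, length below 10000 bp, under 10 bp shared with control peaks) were applied, and stretches shared by at least 1 bp were kept as sites. The study's further intersection with snATAC-seq peaks was not applied here. GENCODE M21 and RefSeq GRCm38.p6, the same build as mm10, gave starts and sequence. Fold steps were searched from 0.3 to 4 background fragments, and every fold up to 30 was whole within 0.02 of a fragment; intervals are exact Poisson and cover counting error only. Scripts used Python 3.11.15, pandas 2.3.3, numpy 2.4.6 and scipy 1.17.1, and were tested on simulated data. Named genes were those of the 12 highest members, list genes with a member site, members and candidates next to the minimum, and the longest and most discordant members; hosts and the examples of other list genes were added after their values were seen. Members and lists were chosen with earlier results of these data known.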

Additional observations from a re-analysis of the deposited data

How the results depend on the processing

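The number of sites stayed within 1.5 times of 340 under 18 of 21 alternatives and moved to 205 and 145 with a minimum fold of 8 and 10, and to 1394 with no exclusion of protein-coding starts. Under the same 3 settings the percentage of eligible lncRNA genes with a site (4.23%) was 2.61%, 1.87% and 14.5%. It was 3.33% with a −log10 q-value above 10, 4.83% with a window of 2 kb, 3.62% with more lncRNA types added and 3.54% with both summits required within 1 kb. The median lower fold (9.20) was 11.5, 12.8 and 10.2 with the minimum fold of 8, of 10 and the −log10 q-value above 10. With a single Foxr2 p53LOF replicate, the count was 383 to 435, the percentage 4.78% to 5.34% and the median fold 8.84 to 9.86; leaving out either control replicate changed none of these. Further exclusion of RefSeq coding starts, chosen after seeing the data, left 327 sites for curated transcripts and 305 for all. The CpG-rich share of summits was 22.9% with 200 bp and 26.2% at replicate 1 summits, the latter also chosen after seeing the data. With 200 bp, shares of member summits fell over 1.5 times for all of the 12 motifs except FOX and NFY, as for ETS (4.41% to 2.06%), SP/KLF (12.9% to 8.53%) and the E-box (6.76% to 3.82%). At replicate 1 summits, chosen after seeing the data, the shares of the E-box (10.3%), TATAAA (10.9% to 15.3%) and CRE (1.47% to 2.65%) were higher, whereas those of FOX (2.65%), NFY (28.5%) and AP-1 (5.88%) were lower. No paired analysis was possible because no result came from a test. The study's methods give an approximate number of reads sequenced per library; aligned reads per library were not used here, and sites near the minimum rest on 13 to 18 fragments.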

Other observations

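Sites at neither a lncRNA nor a protein-coding start included some at other short or unplaced genes. Starts of TEC genes, transcripts still to be experimentally tested, lay within 1 kb of 53 such sites (1.65% of 3219 genes), miRNA genes of 28, processed pseudogenes of 25 (0.252% of 9940 genes), snRNA genes of 24 and snoRNA genes of 9. Transcribed unprocessed pseudogenes had the highest share, 11 of 253 genes (4.35%), close to the 4.23% of lncRNA genes. Median lower folds of these classes ran from 7.06 to 9.94 (the latter for transcribed processed pseudogenes, 4 sites).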
